A study of Macaca mulatta with 33 samples.

Results

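The comparison described here is of progestin added back to corpora lutea whose own progesterone synthesis was inhibited. It sets 3 rhesus macaque (Macaca mulatta) samples given human chorionic gonadotropin (hCG), trilostane (TRL) and R5020 against 3 samples given hCG and TRL, all taken on luteal day 15 after 6 days of hCG. These are 6 of the 33 samples of the series, and replicates 1 to 3 of each group in the labels' numbering. Every animal was an adult cycling female, and both groups received hCG in rising doses as simulated early pregnancy, with TRL for the same days. The labels name no strain, no age beyond adult and no dose of R5020 or TRL, and they do not say that the samples came from separate animals. The p-values therefore measure spread between samples, which may be technical, and that spread was pooled over the 7 groups of the fit. Replicate 4 of each group was left out, because it lies in another array set and its array is near-identical to that of the other group. Day 15 samples with hCG alone (4 arrays), untreated day 10 samples (8 arrays) and the day 10 samples with hCG and TRL (4 arrays), or with hCG, TRL and R5020 (4 arrays), both after 1 day of hCG, serve as reference levels.

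The corpus luteum forms from the ruptured follicle and secretes progesterone, and chorionic gonadotropin from the conceptus keeps it alive in early pregnancy. Pregnenolone becomes progesterone through 3-beta-hydroxysteroid dehydrogenase, and trilostane inhibits this step. R5020, also called promegestone, is a synthetic progestin that binds the progesterone receptor without needing that enzyme. Progesterone acts within the luteal gland itself, where luteal cells of primates carry its receptor, and regression of the gland is known for invasion by macrophages and breakdown of its matrix. The design addresses which effects of trilostane on the hCG-stimulated gland are those of lost progestin.

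RNA of dissected luteal tissue was hybridised to Affymetrix Rhesus Genome arrays. Every value below, unless called a difference, is a log2 intensity after centring, which shifted each array's median to the mean of the array medians. Before centring, the medians of the 6 arrays lay between 6.14 and 6.18. The arrays were luteal by their markers: STAR, which carries cholesterol into mitochondria, read 14.62 to 14.79 with TRL and 14.71 to 14.89 with R5020, and FDX1, which hands electrons to the side-chain cleavage enzyme, read 13.62 to 13.94 over the 6 arrays. For arrays, their number limits the precision, here 3 against 3. The arrays of 1 group did not stand apart as a block. R5020 replicate 1 was closer to TRL replicate 2 (SD of the differences over probe sets 0.321) and TRL replicate 1 (0.343) than to R5020 replicates 2 (0.378) and 3 (0.399), and the median over all 528 array pairs of the series was 0.477. On the first principal component of the 6 arrays, which held 28.4% of the variance, the TRL arrays lay at -21.93, -14.71 and -24.25, R5020 replicate 1 at -2.55 and R5020 replicates 2 and 3 at 33.50 and 29.94. The excluded replicate 4 arrays of the groups differed from each other by an SD of 0.192, the lowest of all 528 pairs.

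No probe set passed a Benjamini-Hochberg adjusted p under 0.05 (limma, 0 of 29165 tested, 0% called), so no gene below is said to have changed. The smallest adjusted p was 0.0746, shared by single probe sets of IKZF1, a transcription factor of lymphoid cells, and CYRIA, a regulator of actin. At an unadjusted p under 0.05 there were 1408 probe sets, 4.83% of those tested, and at the level of genes 304 higher with R5020 (2.88%) and 273 lower (2.58%). The count of calls was 47 without TRL replicate 2 (10 higher and 37 lower with R5020) and 25 without R5020 replicate 1 (22 higher and 3 lower). It was 0 when TRL replicate 1 or 3, or R5020 replicate 2 or 3, was left out instead. With each gene read from its brightest probe set, the 3 R5020 arrays all lay above the 3 TRL arrays in 622 of 10565 genes (5.89%) and all below in 415 (3.93%). Differences above 0 made up 58.7% of genes and those below 0 41.3%, with a median difference of 0.03. These shares, and those without overlap, are the background for each gene group below. Genes differing by over 1 log2 unit were fewer above 0 (45) than below (75).

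**Figure D1:**
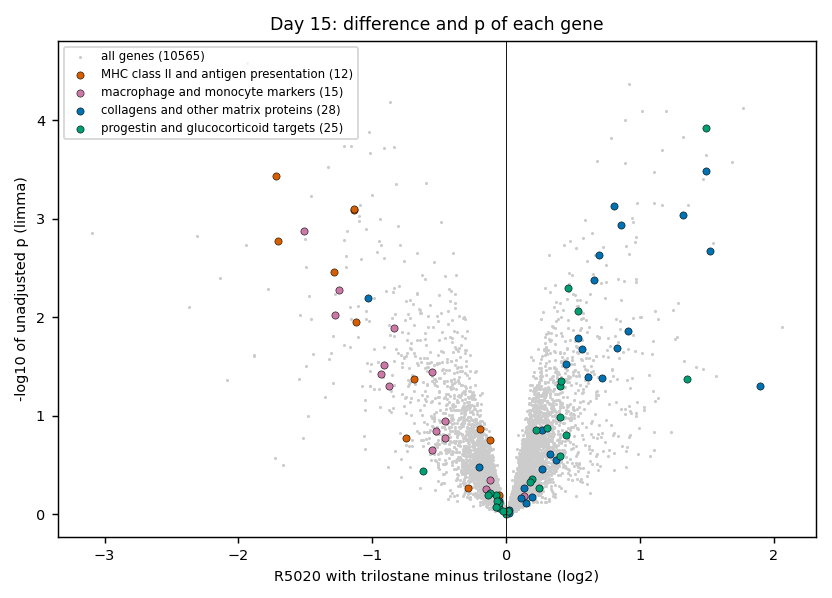
Difference between R5020 with trilostane and trilostane alone at day 15 (log2, horizontal) against -log10 of the unadjusted limma p (vertical) for 10565 genes, with 4 gene lists coloured. The 12 MHC class II points lie left of 0 and 25 of 28 matrix points lie right of it, while no gene passed the adjusted threshold.

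Genes that present antigen on MHC class II molecules read lower in the R5020 samples. All 12 measured members of the list lay below 0, with a median difference of -0.94, and 4 of the 12 had no overlap between groups, against 3.93% of all genes in that direction. Without R5020 replicate 1, 6 of the 12 had none, against 7.73% of all genes. CD74, the invariant chain that guides class II molecules to their peptide compartment, read 11.98, 11.41 and 11.95 with TRL and 10.80, 10.54 and 10.59 with R5020. Every R5020 array was thus under every TRL array, a difference of -1.14 ± 0.30 (SE, 2.20-fold lower, adjusted p = 0.27, limma). MAMU-DRA, the class II alpha chain of the DR type, read 13.16, 12.59 and 13.34 against 12.04, 11.81 and 11.83. Its difference of -1.14 ± 0.30 had an adjusted p of 0.27 (limma), and its 3 probe sets all pointed the same way.

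MAMU-DPA, the alpha chain of the DP type, read 12.01, 11.11 and 12.28 with TRL and 10.38, 10.15 and 9.71 with R5020, a difference of -1.72 ± 0.42 and 3.29-fold. MAMU-DMA, which helps load peptide, read 10.63, 10.04 and 11.32 against 9.69, 9.34 and 9.11. Neither gene's groups overlapped. MAMU-DQA1 differed by as much (-1.71 ± 0.49), but its groups overlapped, since R5020 replicate 1 (9.75) was above TRL replicate 2 (9.59). CIITA, the master activator of class II transcription, read 6.39 to 6.55 with TRL and 6.31 to 6.44 with R5020, a difference of -0.05 ± 0.11 close to the median of all values. Class II probe sets may bind transcripts of near-identical relatives, so the split between these genes is uncertain.

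**Figure D2:**
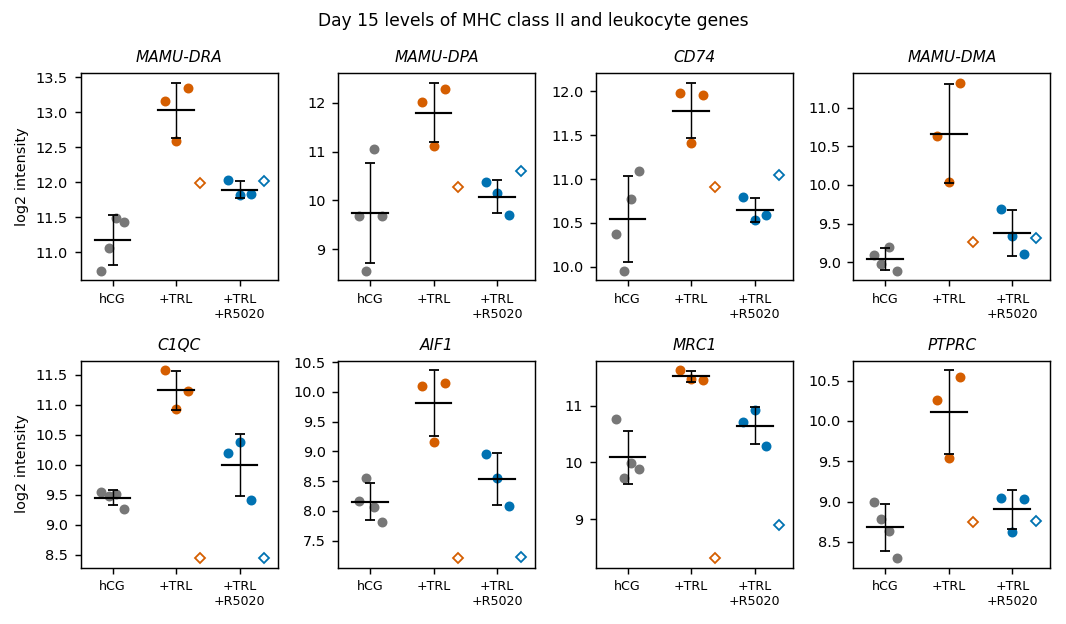
Log2 intensity at day 15 of 4 genes of the MHC class II list (top row) and 4 leukocyte genes (bottom row), for hCG alone (grey, 4 arrays, moved to the scale of array set 2), with trilostane (orange, 3 arrays) and with trilostane and R5020 (blue, 3 arrays). Lines are means and bars SD; open diamonds are the excluded replicate 4 arrays, which are not in the mean. In all 8 panels the 3 orange points lie above the 3 blue points, and for C1QC, AIF1 and PTPRC the 2 diamonds nearly coincide.

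Macrophage and monocyte markers were lower alongside the antigen presentation genes. Of 15 measured, 14 lay below 0 (median -0.55) and 8 had no overlap, all lower with R5020, against 3.93% of all genes. Their summed intensity, on a log2 scale, was 14.33 to 14.78 with TRL, 13.61 to 13.98 with R5020 and 13.06 to 13.40 with hCG alone. C1QC, a chain of the first complement component made by tissue macrophages, read 11.58, 10.93 and 11.22 with TRL and 10.20, 10.38 and 9.41 with R5020, a difference of -1.25 ± 0.41. MRC1, the mannose receptor, read 11.63, 11.48 and 11.45 against 10.72, 10.93 and 10.29. The TRL arrays of MRC1 lay close together and above all R5020 arrays.

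AIF1, an actin-binding protein of macrophages, differed by -1.28 ± 0.45, and FCGR3, a low-affinity antibody receptor whose relatives its probe set may also bind, by -1.51 ± 0.42. CSF1R, the receptor for macrophage colony-stimulating factor, differed by -0.84 ± 0.31 with overlapping groups, as R5020 replicate 2 (9.71) lay above TRL replicate 2 (9.69). CD68, a lysosomal protein common to macrophages, read 9.82 to 10.43 with TRL and 9.70 to 10.42 with R5020, and LYVE1, a hyaluronan receptor of some macrophages and of lymphatic vessels, was the only marker above 0 (0.13 ± 0.30, with 1 of its 3 probe sets pointing the other way). CD163, FCER1G and ITGAM were not measured. PTPRC, the surface phosphatase CD45 of all leukocytes, stands outside the marker lists and is named because its p was among the smallest. It read 10.26, 9.54 and 10.54 with TRL and 9.05, 8.63 and 9.03 with R5020, a difference of -1.21 ± 0.28 (adjusted p = 0.18, limma). Under other choices of arrays and processing its adjusted p ran from 0.023, without TRL replicate 2, to 0.991 (limma). In whole tissue, fewer cells of a type and less RNA per cell cannot be told apart.

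Markers of other leukocytes had medians between -0.06 and 0.29. Of 7 T and NK cell markers, 3 lay above 0 (median -0.06), with GZMK higher and CD4, which macrophages also carry, lower without overlap. The 4 B and plasma cell markers had a median of -0.04 and the 3 dendritic cell markers one of 0.00. All 4 neutrophil and mast cell markers lay above 0 (median 0.29), with groups that overlapped in each. The summed intensity of the 7 T and NK markers was 14.35 to 14.80 with TRL and 14.63 to 15.06 with R5020. Of the same 7, KLRD1 (-1.75) and NKG7 (-1.53) each had a probe set called lower without TRL replicate 2. In that setting 37 probe sets in all were called lower. In the main fit neither was called, and both had groups that overlapped. Outside the lists, the neutrophil gene CD177, picked for its small p, differed by -0.87 ± 0.18 without overlap. TARP, of the T cell receptor gamma locus and picked for its large fall, was at least 1.66-fold lower counted from the median of all values.

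Complement genes were lower in most cases. Of 12 measured, 10 lay below 0 (median -0.55). C1QA, C1QB, C1QC, C5AR1 and CFI were lower without overlap, against 3.93% of all genes. The 3 C1Q genes are shared with the macrophage list, and 1 of the 2 probe sets of C1QA pointed the other way. CFI, a protease that cleaves C3b and C4b, read 10.11, 9.18 and 10.21 with TRL and 9.05, 8.85 and 8.71 with R5020 (-0.96 ± 0.28). CFB, factor B of the alternative pathway, differed by -0.78 ± 0.34 with overlapping groups. The part of the macrophage markers in the class II and complement values was not tested.

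Interferon response and MHC class I genes read lower with R5020 in 20 of 22 cases (median -0.62). Of the 22, 11 had no overlap, all lower, against 3.93% of all genes. IRF7, which amplifies the interferon response, read 8.29, 8.38 and 8.35 with TRL and 7.74, 7.40 and 7.14 with R5020, a difference of -0.91 ± 0.27. ISG15, a ubiquitin-like modifier, read 9.80, 10.26 and 9.78 against 9.67, 8.68 and 8.43. R5020 replicate 1 thus lay just under the lowest TRL array and the other R5020 arrays over 1 unit under it.

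TAP1, which pumps peptides to class I molecules, differed by -0.92 ± 0.43. IFIT3, an interferon-induced antiviral protein, differed by -0.52 ± 0.22, also without overlap. MX1, an antiviral GTPase, differed by -0.84 ± 0.36, its groups overlapping. GBP1, an interferon-induced guanylate-binding protein, read 11.36, 10.01 and 10.78 with TRL and 8.99, 8.24 and 8.50 with R5020, a difference of -2.14 ± 0.68 (4.41-fold). Its 4 probe sets were all lower, though they may also bind other guanylate-binding proteins. B2M, the light chain of class I molecules, read 14.52 to 14.71 with TRL and 14.44 to 14.58 with R5020.

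Chemokine and inflammation genes as a list were level: 12 of 23 lay above 0 (median 0.00), and CCL5, CXCL10, CXCL12 and IL6R were lower without overlap. CXCL10, a chemokine induced by interferon gamma, read 8.96, 7.03 and 9.32 with TRL and 6.69, 6.13 and 5.55 with R5020. The R5020 mean lay under the median of all values (6.19), so the fold counted from that median is at least 4.75. CCL5, a T cell and monocyte chemokine, read 7.80, 7.12 and 8.11 with TRL and 6.71, 6.74 and 6.76 with R5020 (-0.94 ± 0.27). In the apoptosis list 13 of 18 lay below 0 (median -0.07). CASP4, CASP8, BIRC3 and CFLAR were lower without overlap and BIRC2 higher, where 3.93% and 5.89% of all genes were. BIRC3, an inhibitor of apoptosis induced by NF-kappa-B, read 6.53, 5.97 and 8.37 with TRL and 5.61, 5.46 and 5.32 with R5020, the highest value by far being TRL replicate 3.

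Collagens and other matrix proteins read higher in the R5020 samples. Of 28 measured, 25 lay above 0 (median 0.49), and 10 had no overlap with R5020 higher, against 5.89% of all genes. COL1A1, a chain of fibrillar collagen I, read 10.42, 10.47 and 9.98 with TRL and 10.83, 12.79 and 11.73 with R5020, a difference of 1.50 ± 0.36 (2.82-fold, adjusted p = 0.20, limma). R5020 replicate 1 lay just above the TRL arrays and replicate 2 furthest above them. COL1A2, its partner chain, read 12.57, 12.69 and 12.45 against 12.82, 13.94 and 13.36, in the same order of samples. Without R5020 replicate 1 the adjusted p was 0.027 for COL1A1 and 0.041 for COL1A2 (limma), and 18 of the 28 genes had no overlap, against 13.7% of all genes under that choice. Under other choices of arrays and processing the adjusted p of COL1A1 reached 0.919, and that of COL1A2 went higher still (limma).

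COL6A3, a chain of the beaded-filament collagen VI, read 10.85, 10.63 and 10.58 with TRL and 11.17, 11.67 and 11.80 with R5020 (0.86 ± 0.24). FBLN1, a glycoprotein of elastic fibres and basement membranes, was at 6.50, 6.41 and 6.43 with TRL and 7.56, 8.14 and 8.20 with R5020. Its TRL arrays lay close together and over 1 unit under every R5020 array, a difference of 1.52 ± 0.45 with its 3 probe sets in one direction. VCAN, the large proteoglycan versican, read 10.05, 10.22 and 9.35 against 11.37, 10.58 and 10.38, and here R5020 replicate 1 was the highest. THBS1, an adhesive glycoprotein that restrains vessel growth, differed by 1.89 ± 0.92 without overlap, but TRL replicate 3 (6.21) stood over 2 units under the other TRL arrays and 1 of its 5 probe sets pointed the other way. FN1, fibronectin, differed by 0.71 ± 0.33 and LAMB1, a laminin chain, by 0.70 ± 0.21, both with overlapping groups.

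DCN, decorin, a small proteoglycan of collagen fibrils, went against its list. It read 13.90, 13.67 and 13.92 with TRL and 12.71, 13.25 and 12.44 with R5020, a difference of -1.03 ± 0.35 (2.04-fold lower) in which its 5 probe sets pointed the same way. Enzymes that cut or join the matrix were less even, with 17 of 25 above 0 (median 0.19), 5 higher and 1 lower without overlap. ADAMTS2, which trims procollagen, read 7.54, 7.17 and 6.97 with TRL and 8.17, 9.67 and 8.33 with R5020 (1.49 ± 0.35). LOXL1, which crosslinks elastin, differed by 0.79 ± 0.18, and MMP11, a stromal metalloproteinase, by 0.33 ± 0.15.

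**Figure D3:**
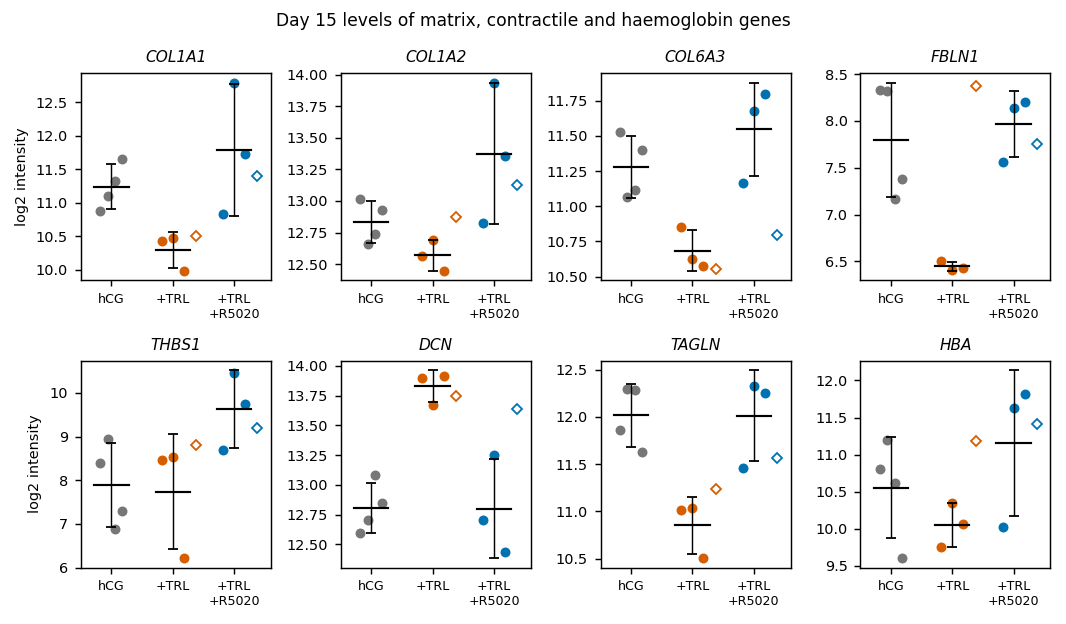
Log2 intensity at day 15 of 6 matrix genes, the smooth muscle gene TAGLN and the haemoglobin gene HBA, for hCG alone (grey, 4 arrays, moved to the scale of array set 2), with trilostane (orange, 3 arrays) and with trilostane and R5020 (blue, 3 arrays). Lines are means and bars SD; open diamonds are the excluded replicate 4 arrays. Except for HBA, whose groups overlap, the blue points lie wholly above the orange ones, or wholly below them for DCN.

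Markers of other stromal and blood cells went partly with the matrix. Of 8 pericyte and smooth muscle markers 7 lay above 0 (median 0.25), and TAGLN and LMOD1 had no overlap. TAGLN, the actin-binding protein transgelin, read 11.01, 11.03 and 10.50 with TRL and 11.46, 12.33 and 12.25 with R5020, a difference of 1.16 ± 0.27. LMOD1, a nucleator of actin filaments in smooth muscle, differed by 0.81 ± 0.31. Their list's summed intensity was 13.16 to 13.38 with TRL and 13.38 to 13.78 with R5020. ACTA2, RGS5, PDGFRB and DES were not measured.

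Of 11 fibroblast markers, 5 of which are also on the matrix list, 8 lay above 0 (median 0.06), and the summed intensity of the 11 was 14.95 to 15.08 with TRL and 14.66 to 15.42 with R5020. All 3 measured red blood cell genes lay above 0 (median 0.89), with summed intensities of 10.33 in R5020 replicate 1, 11.79 and 12.00 in replicates 2 and 3, and 10.10 to 10.58 with TRL. HBA, alpha globin, read 9.75, 10.34 and 10.07 with TRL and 10.02, 11.62 and 11.82 with R5020. R5020 replicates 2 and 3, the arrays highest in COL1A1 and TAGLN, were thus also the ones highest in HBA, and the part of blood and of stromal cells in the matrix values was not tested. Endothelial markers were level (6 of 13 above 0, median -0.04).

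Genes of the WNT pathway included 14 of 17 above 0 (median 0.28) and 4 higher without overlap: FZD1, DKK1, DKK3 and RSPO1. DKK1 had both group means under the median of all values, at 4.80 with TRL and 6.06 with R5020, so no fold is given. DKK3, a secreted relative of the WNT antagonist dickkopf, read 10.47, 10.49 and 10.92 with TRL and 11.01, 11.82 and 11.71 with R5020 (0.88 ± 0.19), though 3 of its 6 probe sets pointed the other way. Among immediate early genes 15 of 19 lay above 0 (median 0.30), with FOSL2, NR4A1, MYC and CCN2 higher and ZFP36 and BTG2 lower without overlap. For both lists, the shares of all genes without overlap were 5.89% higher and 3.93% lower. CCN2, a connective tissue growth factor, read 9.60, 10.04 and 9.74 with TRL and 10.09, 11.58 and 11.03 with R5020 (1.11 ± 0.39). MYC, a growth-promoting transcription factor, read 8.72 to 8.77 with TRL and 9.04 to 9.23 with R5020 (0.38 ± 0.18).

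Genes known as targets of the progesterone and glucocorticoid receptors, which share much of their DNA-binding sequence, were only partly higher. Of 25 measured, 16 lay above 0 (median 0.19), and ZBTB16, KLF15 and MAOA had no overlap, each higher with R5020. ZBTB16, a zinc finger repressor that progestins induce in endometrial stroma, read 6.86, 8.08 and 6.64 with TRL and 8.21, 9.27 and 8.57 with R5020. TRL replicate 2 lay over 1 unit above the other TRL arrays and just under the lowest R5020 array. The difference was 1.49 ± 0.33 (2.81-fold, adjusted p = 0.18), and 1.93 with an adjusted p of 0.0063 without TRL replicate 2 (limma). Under other choices of arrays and processing its adjusted p reached 0.991 (limma). With hCG alone ZBTB16 was at 8.80 ± 0.27 (SD, n = 4).

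KLF15, a metabolic transcription factor, read 7.95, 8.38 and 8.14 with TRL and 8.61, 8.65 and 8.82 with R5020 (0.53 ± 0.19). MAOA, which oxidises monoamines, differed by 0.46 ± 0.15. FKBP5, a chaperone partner of steroid receptors and a common marker of their activity, read 6.64, 6.89 and 7.09 with TRL and 6.69, 7.28 and 7.37 with R5020. The groups overlapped, and the difference of 0.24 ± 0.39 had a 95% interval from -0.56 to 1.05. TSC22D3, a leucine zipper protein induced by glucocorticoids, differed by 0.40 ± 0.20, its groups overlapping. Without R5020 replicate 1 the genes of the list without overlap numbered 8 in place of 3, while the share of all genes went from 5.89% to 13.7%.

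**Figure D4:**
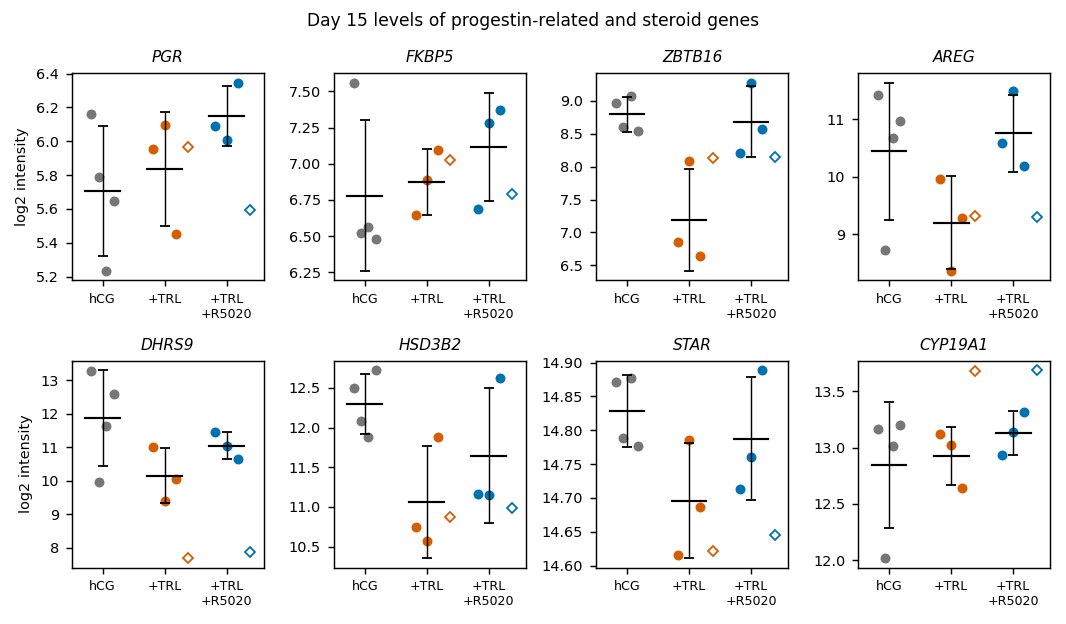
Log2 intensity at day 15 of the progesterone receptor, 3 hormone-responsive genes and 4 genes of steroid handling, for hCG alone (grey, 4 arrays, moved to the scale of array set 2), with trilostane (orange, 3 arrays) and with trilostane and R5020 (blue, 3 arrays). Lines are means and bars SD; open diamonds are the excluded replicate 4 arrays. ZBTB16 and AREG have blue points wholly above the orange ones, and the other 6 genes overlap.

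PGR, the progesterone receptor, was near the median of all values, at 5.95, 6.10 and 5.45 with TRL and 6.09, 6.01 and 6.35 with R5020. Both group means lay under that median, so no fold is given, and the difference was 0.31 ± 0.27 with overlapping groups. Over 12 hormone receptor genes the median difference was 0.06 with 9 above 0, and GHR, the growth hormone receptor, was the one without overlap, higher with R5020. ESR1 and LHCGR were not measured.

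Steroidogenic genes had a median close to that of all genes. Of 16 measured, 10 lay above 0 (median 0.09), and none had groups without overlap. HSD3B2, the enzyme that trilostane inhibits, read 10.75, 10.57 and 11.88 with TRL and 11.16, 11.15 and 12.63 with R5020, a difference of 0.58 ± 0.33. Replicate 3 was the highest array in both groups. STAR differed by 0.09 ± 0.06. CYP19A1, the aromatase that makes estrogen, read 13.12, 13.02 and 12.64 against 12.93, 13.13 and 13.32 (0.20 ± 0.51).

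CYP17A1, which makes androgen precursors, read 11.06, 10.51 and 10.32 with TRL and 10.88, 8.37 and 10.79 with R5020. Its difference of -0.62 ± 0.48 rested on R5020 replicate 2 and was 0.20 without that array. CYP11B1, a hydroxylase better known from the adrenal, was also lowest in R5020 replicate 2 (7.20, against 10.23 and 10.11 in the other R5020 arrays and 9.20 to 10.52 with TRL). DHRS9, a dehydrogenase of retinoids and of the progesterone metabolite allopregnanolone, read 11.02, 9.39 and 10.06 against 11.45, 11.05 and 10.66, a difference of 0.90 ± 0.72 with overlap. HSD11B1, which regenerates cortisol, differed by 0.41 ± 0.18, also with overlap.

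Cholesterol synthesis genes lay below 0 in 14 of 15 cases (median -0.27), none of them without overlap. DHCR7, which completes cholesterol, read 10.19, 10.86 and 10.33 with TRL and 10.14, 10.36 and 9.44 with R5020 (-0.48 ± 0.34), and IDI1, which isomerises the isoprenoid unit, differed by -0.39 ± 0.30. R5020 replicate 3 was the lowest array for both. Cholesterol uptake, storage and efflux genes were level (7 of 13 above 0, median 0.02). Of 7 prostaglandin genes 4 lay above 0 (median 0.08), and PTGS2 was not measured.

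Genes of the ovulatory cascade were mostly higher, with 9 of 10 above 0 (median 0.33), and AREG and PRKAR2B had no overlap. AREG, amphiregulin, the EGF receptor ligand that carries the gonadotropin signal at ovulation, read 9.97, 8.37 and 9.28 with TRL and 10.58, 11.49 and 10.18 with R5020. The difference was 1.55 ± 0.44 (2.92-fold, adjusted p = 0.35, limma), and hCG alone was at 10.44 ± 1.19 (SD, n = 4). Untreated day 10 samples were at 13.72 ± 0.21 (SD, n = 8), far above all 3 day 15 groups. PRKAR2B, a regulatory subunit of the cAMP-dependent kinase, differed by 0.55 ± 0.21. RGS2, which damps G protein signals, differed by 0.67 ± 0.35 with overlap.

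In the inhibin, activin and follistatin group 12 of 17 lay above 0 (median 0.11), with FST, BMP6 and AMHR2 higher and INHBA lower without overlap. The shares of all genes without overlap were 5.89% higher and 3.93% lower. INHBA, the subunit of activin A, read 12.81, 12.53 and 13.09 with TRL and 12.06, 12.11 and 12.13 with R5020. FST, the activin-binding protein follistatin, read 8.84, 9.22 and 9.12 against 9.79, 9.46 and 9.41. With the spread of all groups the 95% intervals include 0, at -0.71 (-1.76 to 0.35) for INHBA and 0.50 (-0.16 to 1.15) for FST. BMP6, a bone morphogenetic protein, differed by 0.94 ± 0.25 and at least 1.39-fold from the median of all values. Retinoid handling genes had 8 of 11 above 0 (median 0.08), and CRABP2, which carries retinoic acid, read 6.62 to 6.70 with TRL and 7.05, 6.84 and 8.23 with R5020.

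In 6 further gene lists the median differences were 0.18 for insulin and IGF signalling (13 of 18 above 0), 0.13 for the cell cycle (13 of 19), 0.12 for oxidative phosphorylation (16 of 18), 0.03 for antioxidants (9 of 16), -0.05 for angiogenic factors (7 of 20) and -0.09 for endoplasmic reticulum stress (5 of 16). In each of these 6 lists at most 2 genes had no overlap in any 1 direction. Luteal and steroidogenic cell markers lay above 0 in 5 of 6 cases (median 0.18), all with overlap, and their summed intensity was 15.69 to 15.87 with TRL and from 15.84 upward with R5020, the ranges overlapping. Granulosa and follicle markers had 3 of 5 above 0 (median 0.11), with INHBA lower without overlap, and epithelial markers 5 of 6 (median 0.17), with KRT19 higher without overlap.

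**Figure D5:**
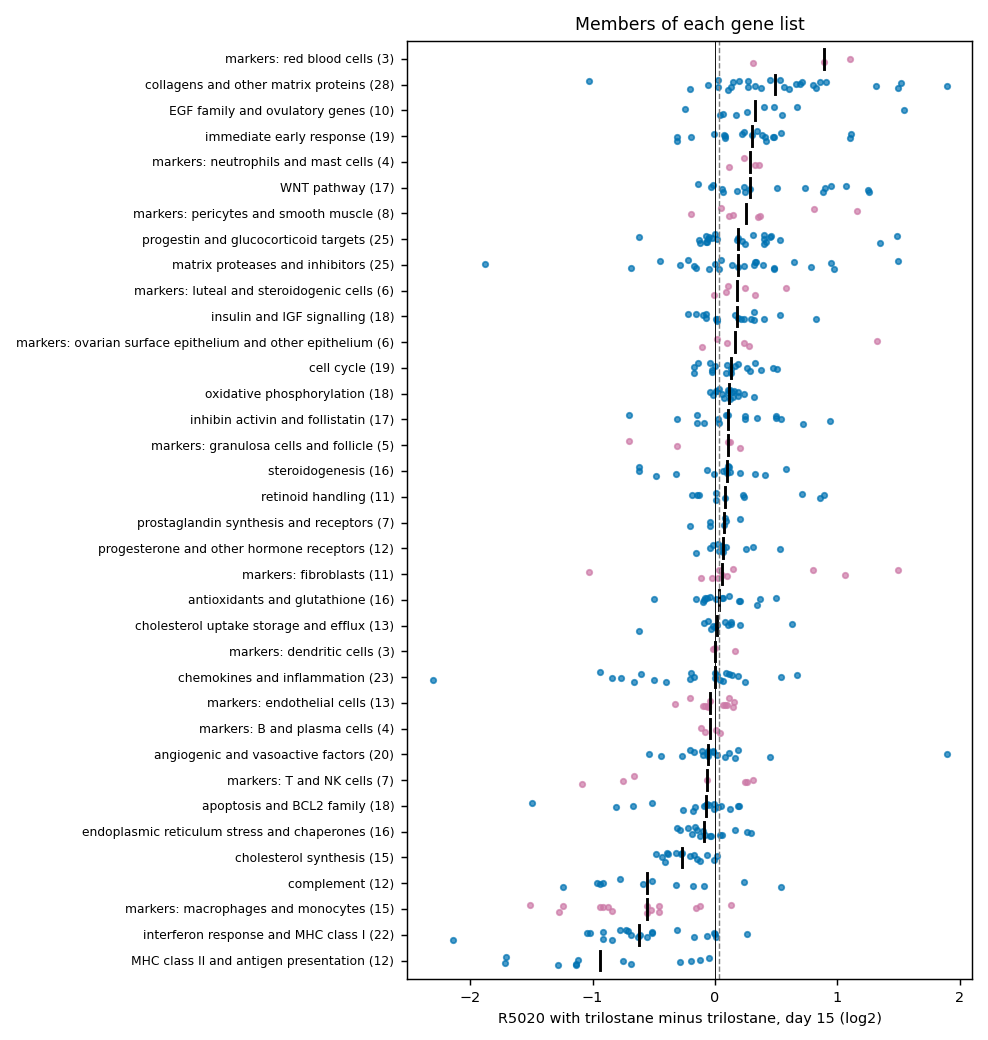
Difference between R5020 with trilostane and trilostane alone at day 15 (log2) for every measured gene (points) of 24 gene lists (blue) and 12 cell marker lists (pink), with the number measured in brackets and the list median as a black bar. The dashed line is the median of all 10565 genes (0.03); MHC class II (-0.94) has the lowest median and, among the gene lists, collagens and other matrix proteins (0.49) the highest.

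Because no gene was called, the following were chosen after their values were seen, as those of the largest difference without overlap. PCDH20, a protocadherin of cell adhesion, read 7.71, 7.11 and 6.72 with TRL and 3.98, 3.72 and 4.56 with R5020, and counted from the median of all values the R5020 samples were at least 1.99-fold lower. With hCG alone it ranged from 5.75 to 9.90. EYA4, a phosphatase and transcriptional coactivator, read 6.90, 8.49 and 6.64 against 4.83, 5.86 and 4.24, and CA4, a membrane carbonic anhydrase, read 8.87, 8.49 and 9.17 against 7.49, 6.45 and 6.76 (-1.95 ± 0.56). The excluded replicate 4 arrays, TRL then R5020, read 3.49 and 3.73 for PCDH20, 4.86 and 4.94 for EYA4, and 6.52 and 6.44 for CA4. For these genes the excluded TRL array was thus under all TRL arrays compared.

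PLAC8, a small protein found in myeloid and epithelial cells, read 10.07, 8.24 and 9.15 with TRL and 7.58, 7.27 and 6.80 with R5020. Its difference of -1.94 ± 0.38 (3.83-fold lower) had an adjusted p of 0.13, and of 0.0063 without TRL replicate 2 (limma). Under other choices of arrays and processing the adjusted p reached 0.559 (limma). CD33, a sialic acid receptor of myeloid cells, differed by -1.50 ± 0.43, NAIP, a sensor of bacterial proteins, by -1.46 ± 0.37, and ERAP2, which trims peptides for class I molecules, by -1.47 ± 0.49. CCL13, a chemokine, read 6.50 to 6.77 with TRL and 4.94 to 5.18 with R5020, and with all R5020 arrays under the median of all values it was at least 1.35-fold lower counted from that median.

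On the other side CRHBP, which binds corticotropin-releasing hormone, read 5.45, 6.21 and 4.74 with TRL and 7.04, 7.90 and 7.64 with R5020, at least 2.54-fold higher. MAMDC2, a matrix proteoglycan, read 7.09, 8.07 and 7.37 against 9.17, 9.37 and 9.30, the R5020 arrays being close to each other (1.77 ± 0.38, adjusted p = 0.17, limma). FABP3, a fatty acid binding protein, differed by 1.69 ± 0.40, SPON2, a secreted matrix protein, by 1.36 ± 0.35 and ARNT2, a helix-loop-helix partner factor, by 1.32 ± 0.30. KRT19, an epithelial keratin whose TRL arrays all lay under the median of all values, was at least 1.37-fold higher. PPBP, a platelet chemokine, was highest in R5020 replicates 2 and 3 (6.72 and 7.86) and at 5.36 in replicate 1, against 4.75 to 5.31 with TRL.

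APPL2, an adaptor of endosomes named, like RERG, for its small p, was at 10.11 ± 0.47 (SD, n = 3) with TRL and 11.13 ± 0.19 with R5020, without overlap (1.01 ± 0.22, adjusted p = 0.17, limma). RERG, a growth-inhibiting small GTPase, read 8.04, 8.37 and 8.19 with TRL and 8.68, 9.53 and 9.13 with R5020 (0.91 ± 0.19, adjusted p = 0.16, limma).

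The R5020 samples were also set against hCG alone, to ask whether the level with replaced progestin differed from that with progesterone made by the gland. These groups lie in different array sets, joined through untreated arrays of both, and the R5020 arrays are the same as above, so the comparisons are not independent. No probe set was called (limma, 0 of 29165, smallest adjusted p 0.999), and 793 (2.72%) had an unadjusted p under 0.05, while 41.4% of genes lay above 0. The intervals are wide: CD74 was at 10.55 ± 0.49 (SD, n = 4) with hCG alone, and the R5020 difference from it was 0.10 with a 95% interval from -0.69 to 0.88. COL1A1 differed from hCG alone by 0.55 (-0.40 to 1.49), ZBTB16 by -0.11 (-0.98 to 0.75) and HSD3B2 by -0.65 (-1.51 to 0.20).

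Macrophage markers had a positive median against hCG alone (0.54, 13 of 15 above 0), as did complement (0.50, 9 of 12) and, less so, MHC class II (0.22, 10 of 12). For these lists the R5020 samples thus had medians below the TRL samples and above the hCG samples. Cholesterol synthesis genes lay below hCG alone in all 15 cases (median -0.34). Progestin and glucocorticoid targets had a median of -0.11 with 10 of 25 above 0.

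At day 10, after 1 day of treatment, the same R5020 contrast crosses array sets. The difference of the effect between days was tested in the same fit, and no probe set was called (limma, 0 of 29165, smallest adjusted p 0.111; 1213, or 4.16%, at an unadjusted p under 0.05). The interferon and MHC class I genes had a median of 0.69 at day 10, all 22 above 0 where 58.9% of all genes were, against -0.62 at day 15. ISG15 differed by 1.55 at day 10 and -1.02 at day 15, a difference between days of -2.57 ± 0.73 (adjusted p = 0.72, limma), and IFIT3 by 1.01 and -0.52. MHC class II genes had a median of 0.13 at day 10, macrophage markers one of 0.25 and matrix genes one of 0.26. Progestin and glucocorticoid targets had a median of -0.12 at day 10, with 7 of 25 above 0, against 0.19 at day 15. KLF15 differed by -0.44 and MAOA by 0.27 at day 10. ZBTB16 differed by 0.03 at day 10, where the TRL group was at 8.21 ± 0.50 and the R5020 group at 8.23 ± 0.18 (SD, n = 4 each).

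The excluded replicate 4 arrays bear on these values, since over all probe sets they read almost alike in both groups, though not for every gene. CD74 was 10.91 in the TRL array and 11.04 in the R5020 array, ZBTB16 8.12 and 8.14, and AREG 9.32 and 9.30. Genes that read unlike went both ways. COL1A1, at 10.49 and 11.40, went with the difference given above. FBLN1, at 8.38 and 7.75, and KRT19, at 8.04 and 6.70, went against theirs. Genes whose 4 and 4 arrays did not overlap in the direction given above were counted with these arrays added, after subtracting their fitted array set effect. There were none among the 12 class II, 22 interferon, 15 macrophage, 12 complement or 25 progestin target genes, and 5 among the 28 matrix genes. The shares of all genes were 0.852% lower and 1.76% higher. Because the added arrays are near-identical, adding 1 to each group makes overlap likely for any gene. The counts of none therefore cannot show whether those lists differ.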

How the data were processed

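Luteal RNA of 33 samples was hybridised to 33 Affymetrix Rhesus Genome arrays. The deposited values are log2 intensities per probe set; the authors' software and normalization are unstated (not given in the sources used here). No per-sample column was left unused.

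Of 52865 probe sets, 99 controls were left out, and 29165 were kept: those with 3 or more arrays above 6.19, the median over the whole table. Because array medians differed by up to 0.183, each array was shifted so that its median equalled the mean of the array medians. The platform annotation, which can be old, gives 1 symbol for 17734 kept probe sets, several for 243 and none for 11188. Before the filter, 24616 probe sets with 1 symbol were matched by gene identifier, and the symbol was updated in 0 of them. A gene is represented by whichever of its kept probe sets has the highest mean. Sequences and genome positions were not used.

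Group and array set were terms of 1 limma fit (limma 3.58.1, R 4.3.3, lmFit and eBayes with trend, 2-sided) of the 30 arrays of sets 1 and 2, with 22 residual degrees of freedom and a median residual SD of 0.213. The array set is the number in the array names. Both groups compared lie in set 2, so the estimate is the difference of their means. Sharing 1 spread over 7 groups makes a gene's SE depend on all groups. P-values were adjusted (Benjamini-Hochberg) over the kept probe sets and called under 0.05. The script was tested on simulated data. Levels with hCG alone and of day 10 groups were moved to the scale of set 2. Replicate 4 values were only centred, except in the counts of 4 and 4 arrays, where the fitted set 3 effect was subtracted. Day 15 hCG replicate 3 (set 3) was left out, and replicate 5, near-identical to it, was kept.

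The 36 lists (24 gene lists, 12 of markers) and the comparison were chosen with earlier results of these data known. Lists are described by counts and medians, with no test. The rule named called genes of largest difference, called list members, and always PGR, FKBP5, STAR, HSD3B2, CYP19A1, CYP17A1, DHRS9, CD74 and AREG; other members are examples of a list's count, and the rest are said to be chosen after their values were seen. Alternatives were other normalizations, filters, fits and arrays, and each array left out.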

Additional observations from a re-analysis of the deposited data

Results flagged for a closer look

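Among day 15 samples with hCG alone (4 arrays, on the scale of array set 2), 1 array stood far from the other 3 in 6 of 101 named genes (5.94%; chance flags about 1 in 20). In replicate 1, FKBP5 read 7.56 against 6.48 to 6.56 in the others, CXCL10 6.78 against 5.48 to 5.59, and FOS, an immediate early transcription factor, 10.89 against 7.36 to 7.96. In replicate 2, CYP19A1 read 12.02 against 13.01 to 13.20 and BIRC3 5.97 against 5.38 to 5.43. In replicate 4, DHCR7 read 11.82 against 10.53 to 10.70. The groups of 3 arrays were too small for this check.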

How the results depend on the processing

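The count of calls for R5020 with trilostane against trilostane at day 15 was 0. It stayed 0 without centring, with quantile normalization, a stricter filter, all 33 arrays, no trend or set 2 alone. It was 6 without a filter on low values (all lower with R5020), 3 with only the 6 arrays compared (MRC1 and CCL13 lower, TBC1D19 higher) and 0 to 47 leaving out 1 array. The day difference gave 1 call without a filter and 0 to 2 leaving out 1 array (2 without TRL replicate 2). Against hCG alone it was 0 throughout, with 2914 probe sets at an unadjusted p under 0.05 without the array set term. Arrays of the groups with the same replicate number in the source names had deviations that correlated at 0.07, 0.03 and 0.17, so the numbers were not taken to pair the samples. The titles number the trilostane arrays differently, and by title the shared numbers gave 0.07 and -0.13. With the source-name replicate number as a block, 4 probe sets were called, 3 of GBP1 and 1 of EYA4, all lower.

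Of 101 named genes, 96 kept their direction over 16 settings. The others changed sign when 1 array was left out, with differences from -0.080 to 0.00049 for CIITA (highest without TRL replicate 3), and, highest without R5020 replicate 2, from -1.05 to 0.20 for CYP17A1, from -0.345 to 0.030 for CD68 and from -1.01 to 0.50 for CYP11B1. For LYVE1 they ran from -0.052 (without R5020 replicate 3) to 0.366. List medians moved by less than the replicate spread in 524 cases and by more in 16. The MHC class II median ranged from -1.34 to -0.61, the interferon median from -0.73 to -0.41, the macrophage median from -0.78 to -0.41, and the matrix median from 0.29 to 0.62. The counts of list genes without overlap under other choices of arrays were added after seeing the data; the fits that leave out 1 array or use all 33 were planned.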
